A study of Homo sapiens with 48 samples.

Results

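Unstimulated IL11mNG fibroblasts that received a GLIS3 guide RNA were compared with fibroblasts that received a control guide, before any cytokine was added. The 6 libraries compared, 3 of GLIS3 CRISPRko and 3 of CRISPRko control, are those whose labels give 0 h, out of 48 libraries in the series. IL11mNG fibroblasts are an immortalized human skin fibroblast line with a fluorescent mNeonGreen reporter of IL11, grown from sorted single-cell clones and then given lentiviral Cas9. Both groups carried the reporter, Cas9, a lentiviral guide and the drug selection. They differed in the guide, and in genotype as labelled: WT for the control and GLIS3 knock out for GLIS3 CRISPRko. Cells were kept as a selected bulk population, so a GLIS3 CRISPRko library averages over cells that could carry different edits or none. The other libraries held the same cells after 6, 12 or 24 h with TGFβ and IL-1β, both at 10 ng per ml, and a CRISPRa arm, whose cells carry inactive dCas9 joined to the activator VP64. The titles and the descriptions of that arm disagree on which group is the control, so its groups are called VP64_A and VP64_Ctrl, after the descriptions. The titles name VP64_A as the control, and the difference in GLIS3 between these groups is given below. The study describes the replicates of its cell culture experiments as biologically independent. Its methods describe selecting a bulk population with each guide and then seeding it, and do not state whether replicates were transduced separately. P-values of the CRISPRko arm measure the spread between libraries of the same group, estimated over all 24 CRISPRko libraries together.

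GLIS3 is a Krüppel-like zinc finger transcription factor related to the GLI factors of Hedgehog signalling, and is best known for its roles in the pancreas, thyroid and kidney. Fibroblasts build and remodel the extracellular matrix, a mesh of collagens, glycoproteins and proteoglycans. In fibrosis they are activated by TGFβ and by inflammatory cytokines such as IL-1β, and IL11 is one of the cytokines they then release.

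The guides shown are those that the study's oligonucleotide list gives for CRISPRko of GLIS3 and for its control. Whether these sequences were the ones used in these libraries was not checked. Each is given with the NGG motif that follows its perfect match in GRCh38, in capitals, and the guide itself in lower case.
GLIS3 CRISPRko guide: ccacatcgaccagcgcaaagGGG
CRISPRko control guide: gcagaccaattacaacacacTGG
The GLIS3 guide had 1 perfect site, on the minus strand at chr9:4117887-4117906. In GENCODE annotation that site lies in the coding sequence of exon 4 of the 11 exons of the canonical GLIS3 transcript, with 56.9% of the coding sequence before the expected cut. The coding sequence of 3 of 10 annotated protein-coding GLIS3 transcripts holds the site. The control guide, used as non-targeting, also had 1 perfect site, on the plus strand at chr12:123325581-123325600, in the coding sequence of exon 15 of 32 of SBNO1. Levels of SBNO1 were 29, 32.4 and 30.8 normalized CPM in the control libraries and 21.6, 31.3 and 23.7 in GLIS3 CRISPRko. Normalized CPM are counts scaled to a common library size, after edgeR's TMM method. The groups overlapped, and the log2 fold change of SBNO1, GLIS3 CRISPRko over control as throughout, was -0.26 (SE 0.18, adjusted p = 0.612).

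GLIS3 was examined first, as a check of the labels. The estimated counts were 15, 9 and 8 in the control libraries and 2, 1 and 3 in the GLIS3 CRISPRko libraries, so GLIS3 was lower in every GLIS3 CRISPRko library. In normalized CPM these were 2.03, 1.45 and 2.16 against 0.354, 0.144 and 0.395. Pooled over the libraries, control exceeded GLIS3 CRISPRko by a ratio of 6.22, with an exact 95% interval of 2.56 to 18.2 that covers counting error only. The adjusted p was 0.0355, and GLIS3 passed in 1 of 6 fits with a library left out. A count of RNA does not tell whether a transcript carries an edit, and GLIS3 was near the lower limit of what this depth measures. Neighbours of GLIS3 were compared too. Of 27 genes in the table whose annotated start lies within 2 Mb of GLIS3, 11 were tested and 0 passed in edgeR's test, with the lowest adjusted p at 0.408. Without adjustment 1 had a p under 0.05, JAK2 (log2 fold change -1.01). Their median log2 fold change was -0.09, with 1 above and 10 below 0. The neighbour SLC1A1, a glutamate transporter, had 7.70, 8.21 and 7.56 normalized CPM in control and 4.95, 7.5 and 9.22 in GLIS3 CRISPRko (adjusted p = 0.939).

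The 6 libraries held between 3377399 and 6827644 estimated counts. Fibroblast markers were present: all 16 listed exceeded 1 TPM (an abundance that allows for transcript length) in at least 1 library. Of the other lists, 0 of 8 endothelial and 0 of 8 melanocyte or Schwann markers exceeded it, and of 10 immune markers 1 did, CD68, which also marks lysosomes. It did so for 5 of 14 keratinocyte or epithelial markers, KRT8 and KRT18 among them, while KRT5, TP63, EPCAM and KRT19 were at 0 in all 6 libraries. Of 9 smooth muscle or pericyte markers 5 did, ACTG2, CSPG4, KCNJ8, ABCC9 and CNN1, and MYH11 and DES were at 0. ACTG2 was at 32.4 to 66.1 TPM in control and 55.3 to 134 in GLIS3 CRISPRko. GLIS3 CRISPRko replicate 3 stood apart from the other 5 libraries. Its TMM factor was 1.5, against 0.962 to 1.10 in the others, and its 50 most abundant genes took 30.7% of its counts, against 39% to 39.9%. Genes were put into 10 bins by mean level. The median ratio of replicate 3 to the control mean was between 1.03 and 1.07 in the 8 lower bins and 0.809 in the highest bin. In replicates 1 and 2 the ratio went the other way, from 0.862 and 0.925 in the lowest bin to 1.15 and 1.11 in the highest. Leaving out replicate 3 therefore keeps 2 libraries with the opposite trend. The calls and list medians below are given with and without GLIS3 CRISPRko replicate 3, and its part in them was not tested beyond that.

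**Figure D1:**
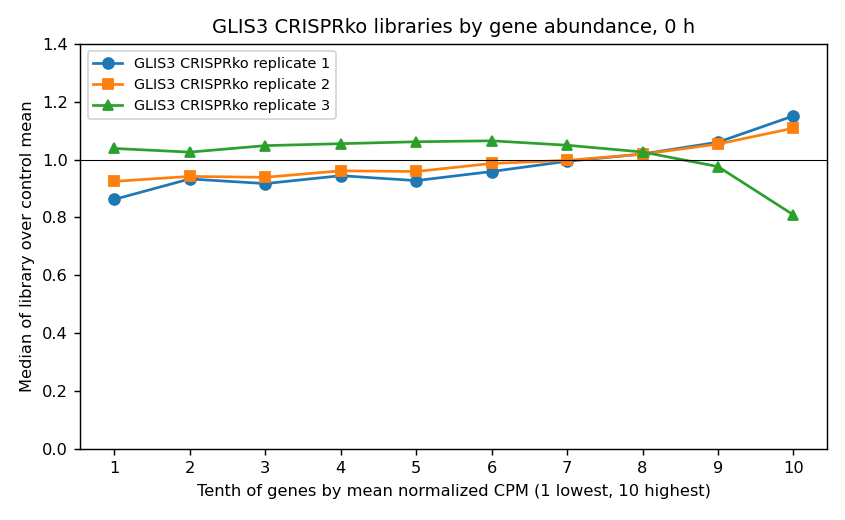
The median ratio of each GLIS3 CRISPRko library at 0 h to the mean of the 3 control libraries (vertical axis, normalized CPM over normalized CPM) in 10 bins of genes by mean level (horizontal axis). Replicate 3 falls to 0.809 in the highest bin, where replicates 1 and 2 reach 1.15 and 1.11, from 0.862 and 0.925 in the lowest.

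At 0 h, 33 of 10962 genes differed at an adjusted p under 0.05, which is 0.301% of the genes tested. In GLIS3 CRISPRko, 19 were higher (0.173%) and 14 lower (0.128%). Lower genes included the matrix proteoglycan gene DCN, the WNT antagonist SFRP1, the matrix protein gene TGFBI and GLIS3 itself. Higher genes included the matrix genes COL8A1, NID2, OLFML3 and MXRA5, the lysosomal peptidase gene TPP1, and SERPINB7. In bulk libraries, fewer cells of a type and less RNA per cell cannot be told apart. The libraries of the groups did not overlap for any of the 33 genes, as for 17.8% of all genes tested (8.97% with GLIS3 CRISPRko higher and 8.85% lower). The sizes ranged from 0.61 to 2.55 on the log2 scale among lower genes and from 0.70 to 1.11 among higher genes. Without adjustment 1253 genes (11.4%) had a p under 0.05, with 6.17% higher and 5.26% lower.

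The count depended on single libraries. It was 2 without control replicate 1, 12 without control replicate 2, 6 without GLIS3 CRISPRko replicate 1 and 5 without replicate 2. Leaving out GLIS3 CRISPRko replicate 3 gave 52 genes, 31 higher and 21 lower. Of the 33 genes, 21 passed without that library. The 12 that did not were NUAK2, GJA5, DUSP6, NID2, MXRA5, NAA50, PCNP, SLFN11, KIF11, ARMC9, HIST1H2BK and ACKR4. DCN alone passed in all 6 of these fits with a library left out, and GJA5, KIF11 and HIST1H2BK passed in 0 of the 6. DESeq2 gave 119 genes, and 31 of the 33 were among them. The limma fits on log2 TPM gave 11 to 13 genes, and each of them called only 2 of the 33. SFRP1 and GLIS3 received no adjusted p from DESeq2.

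**Figure D2:**
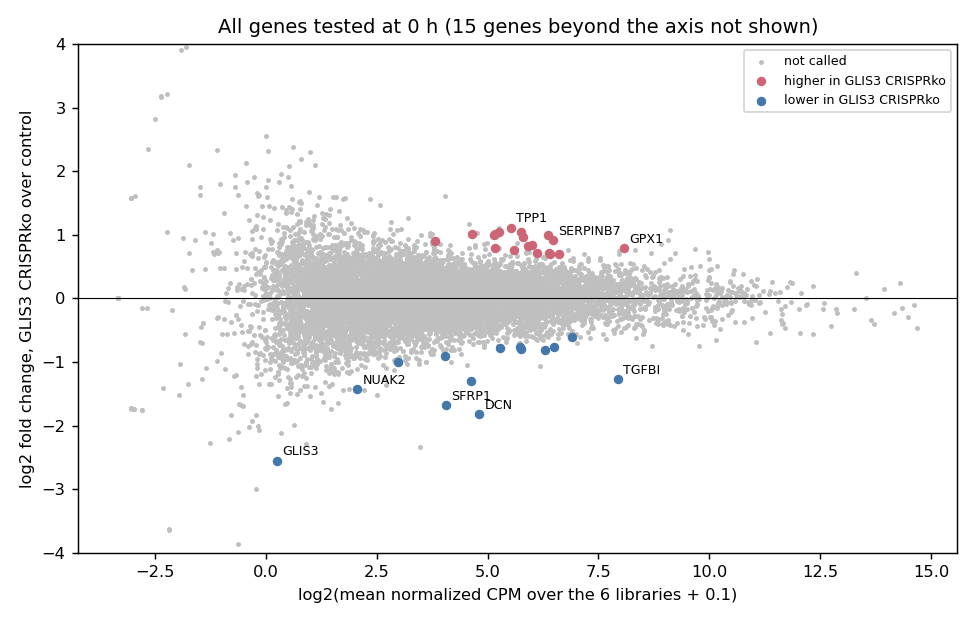
The log2 fold change of each gene at 0 h (vertical axis) against its level (horizontal axis, log2 of mean normalized CPM over the 6 libraries plus 0.1). Of 10962 genes, 19 higher and 14 lower in GLIS3 CRISPRko are coloured, and 15 genes lie beyond the axis limits of 4.

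Among the called matrix genes, the largest difference was in DCN, which encodes decorin, a small proteoglycan that binds collagen fibrils and TGFβ. DCN lies on chromosome 12 from 91140484 to 91182817 (GRCh38.p14, RefSeq, as for the other gene positions). Its level was 41.2, 47.5 and 41.9 normalized CPM in the control libraries and 13.6, 14.9 and 8.69 in GLIS3 CRISPRko. DCN was thus 3.53-fold lower (log2 fold change -1.82, SE 0.23, adjusted p = 6.05e-05). It passed under each of the 18 other settings, and each single library left out gave between -1.98 and -1.63. DCN is also a fibroblast marker. Of 15 fibroblast markers tested it was the only one called, and 6 were above and 9 below 0. Their median log2 fold change was -0.30, or -0.12 without GLIS3 CRISPRko replicate 3, and without adjustment 2 were higher and 4 lower.

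TGFBI encodes a matrix protein named for its induction by TGFβ and lies on chromosome 5 from 136028988 to 136063818. The control libraries held 493, 322 and 222 normalized CPM and the GLIS3 CRISPRko libraries 133, 152 and 147. The groups did not overlap, but the control libraries spread over a wider range than the difference between the lowest of them and the GLIS3 CRISPRko libraries. Its log2 fold change was -1.27 (SE 0.24, adjusted p = 0.0118), and it passed in 3 of 6 fits with a library left out.

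Other matrix genes were higher in GLIS3 CRISPRko. COL8A1, a network-forming collagen of basement membranes and vessel walls, was at 62.8, 67.6 and 62.4 normalized CPM in control and 104, 121 and 88.9 in GLIS3 CRISPRko, 1.62-fold higher (adjusted p = 0.0355). NID2, nidogen, a basement membrane linker, was at 31.1, 33.2 and 43.8 against 61.9, 57.3 and 62.4 (1.70-fold, adjusted p = 0.0345). OLFML3, a secreted olfactomedin-domain protein, rose by 0.71 on the log2 scale (adjusted p = 0.0345). MXRA5, a matrix-associated protein, was at 32.7, 65.7 and 67.3 in control and 97.2, 117 and 115 in GLIS3 CRISPRko, so that the lowest control library stood below the other control libraries (adjusted p = 0.0345). COL8A1, NID2, OLFML3 and MXRA5 each passed in only 1 of 6 fits with a library left out.

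Few members of the broader matrix lists were called. Of 15 non-fibrillar collagens tested, COL8A1 was the only one called, 10 were below 0, and the median log2 fold change was -0.28, or -0.06 without GLIS3 CRISPRko replicate 3. Without adjustment 2 of them were higher and 4 lower. Of 7 fibrillar collagens 0 were called, with 6 below 0, 1 at an unadjusted p under 0.05 and a median of -0.34 (-0.21 without that library). The most abundant, COL1A2, was at 14211, 16327 and 12226 normalized CPM in control and 12938, 13766 and 7109 in GLIS3 CRISPRko, and the groups overlapped (adjusted p = 0.789). COL3A1 was lower in each GLIS3 CRISPRko library, with 1094, 1365 and 837 in control and 784, 697 and 475, yet its adjusted p was 0.325. Matrix glycoproteins had 35 members tested, with NID2 called higher, TGFBI called lower, 3 higher and 3 lower without adjustment, and a median of -0.08 (-0.0050 without that library). Proteoglycans and hyaluronan genes had 17, with DCN the only one called, 2 higher and 1 lower without adjustment, and a median of 0.06 (0.03 without that library). Among 33 matrix proteases and inhibitors 0 were called, and without adjustment 7 were higher and 3 lower, with a median of 0.08 (0.04 without that library). The median of all genes tested was 0.02, or -0.03 without that library.

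**Figure D3:**
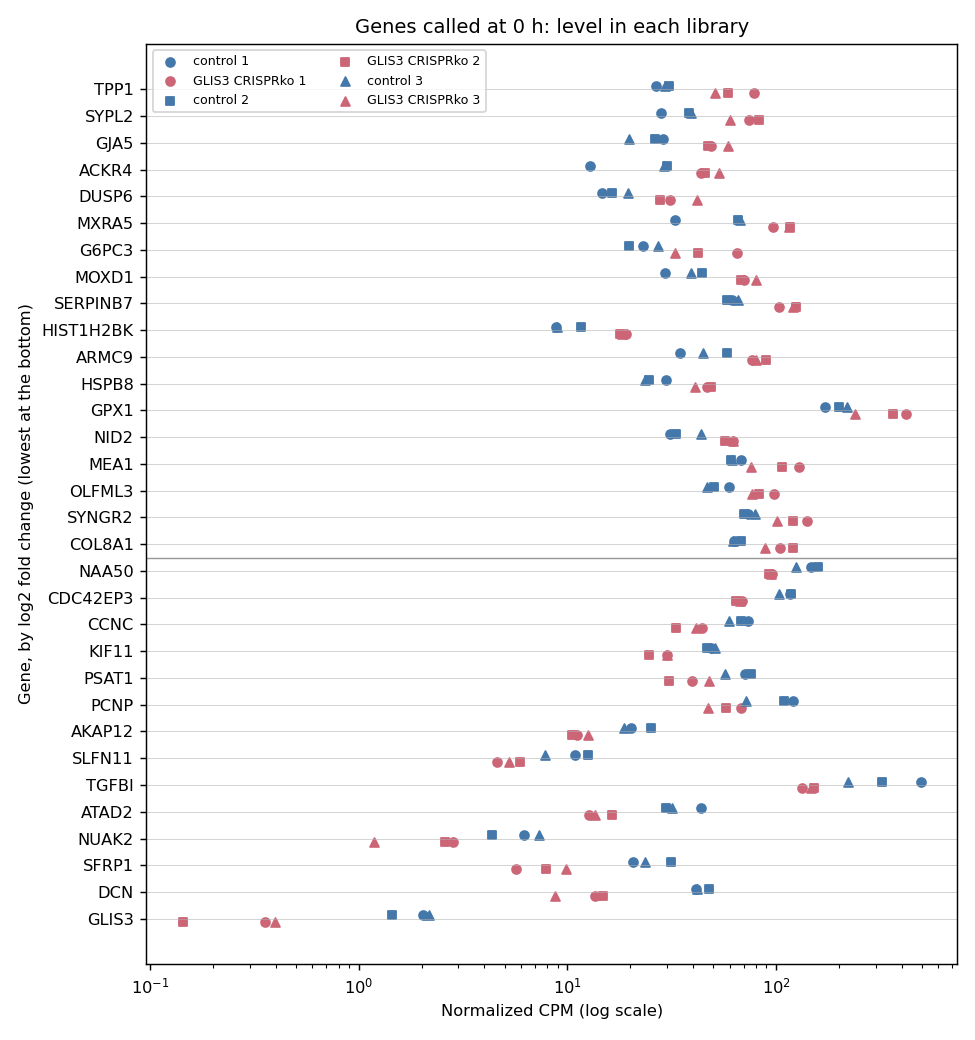
Normalized CPM of 32 called genes (horizontal axis, log scale) in the 3 control libraries (blue) and the 3 GLIS3 CRISPRko libraries (red) at 0 h, with a marker shape for each replicate, and genes ordered by log2 fold change. The blue and red points do not overlap for any of them, and GLIS3 lies lowest, at 0.144 to 2.16.

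Signalling genes were called in both directions. SFRP1, a secreted protein that binds WNT ligands, was at 20.7, 31.6 and 23.5 normalized CPM in control and 5.66, 7.93 and 9.87 in GLIS3 CRISPRko, 3.19-fold lower (log2 fold change -1.68, SE 0.29, adjusted p = 0.00587). Of 18 WNT genes tested it was the only one called, 13 were below 0 (median -0.22, or -0.29 without GLIS3 CRISPRko replicate 3), and 0 were higher and 2 lower without adjustment. The ligand gene WNT5A had 136, 97.2 and 61.6 in control against 40.3, 47.7 and 54.4, and missed the threshold (log2 fold change -1.06, adjusted p = 0.0707). NUAK2, a kinase of the AMPK family and a target of TEAD factors with YAP, was at 6.21, 4.35 and 7.29 against 2.83, 2.60 and 1.18 (log2 fold change -1.43, adjusted p = 0.0185), and its adjusted p was 0.0710 without GLIS3 CRISPRko replicate 3. In the list of TEAD factors, coactivators and targets NUAK2 was the only one of 28 called, 22 were below 0 (median -0.15, or -0.20 without replicate 3), and 0 were higher and 3 lower without adjustment.

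DUSP6, a phosphatase that dampens ERK signalling, was at 14.6, 16.4 and 19.4 normalized CPM in control and 31.1, 27.7 and 41.9 in GLIS3 CRISPRko (log2 fold change 1.02, adjusted p = 0.0345). The scaffold gene AKAP12, which anchors protein kinase A, was at 20.3, 25.1 and 18.6 against 11.1, 10.5 and 12.5 (-0.91, adjusted p = 0.0132). CDC42EP3, an effector of the GTPase CDC42, was lower, at 103 to 118 in control and 64.3 to 68.4 in GLIS3 CRISPRko (-0.76, adjusted p = 0.0106). ACKR4, a decoy receptor for chemokines, was higher, from 12.8 to 29.9 in control to 43.8 to 53.6 in GLIS3 CRISPRko (adjusted p = 0.0469). GJA5, a gap junction connexin, was also higher (1.04, adjusted p = 0.0246), but passed in 0 of 6 fits with a library left out. None of the 36 genes of TGFβ and BMP signalling was called, nor any of 29 of IL-1 and NF-κB signalling, 12 of the IL-6 family and JAK-STAT, or 24 cytokines and chemokines. Without adjustment, 2 genes were higher and 1 lower in the first of these lists, 3 and 3 in the second, 0 and 2 in the third and 3 and 1 in the fourth. Among 8 GLIS and GLI factors with Hedgehog genes, GLIS3 alone was called, and its relatives GLIS2 (0.24, adjusted p = 0.890), GLI2 (0.53, 0.655) and GLI3 (0.39, 0.862) did not pass. Of the study's named fibrotic genes, IL11 stood at 18, 9 and 12 counts in control and 9, 6 and 7 in GLIS3 CRISPRko, with overlap, and its log2 fold change of -1.04 (SE 0.51) had an adjusted p of 0.441. LIF had at most 9 counts in any library. COL6A1 (log2 fold change -0.64, adjusted p = 0.0787) and COL6A3 (-0.56, 0.275) did not pass at 0 h either. Nor did FAP (-0.34, 0.331), MMP2 (-0.34, 0.672) or PTGFR (-0.50, 0.635). Apart from MMP2, these were lower in GLIS3 CRISPRko without overlap of the groups, as were 8.85% of all genes tested. The study named its genes with DESeq2 after 24 h with cytokines, as lower in GLIS3 CRISPRko and higher with CRISPRa. It also reports COL6A1 and COL6A3 as raised by CRISPRa in unstimulated cells. In VP64_A over VP64_Ctrl at 0 h their log2 fold changes were 2.12 and 0.84 (edgeR adjusted p = 1.25e-11 and 0.00447). There MMP2 (1.04, 0.000172) and PTGFR (0.93, 0.00914) passed too, while IL11 (0.45, 0.365), LIF (0.17, 0.929) and FAP (0.34, 0.152) did not. Of 29 genes that the study lists for inflammation-associated fibroblasts (IAFs), the IL11-expressing fibroblasts of inflamed gut, 2 were called, GLIS3 and TGFBI, both lower, and 18 were below 0 (median -0.32, or -0.35 without GLIS3 CRISPRko replicate 3). Without adjustment 2 were higher and 10 lower, and the groups did not overlap for 3 higher and 10 lower members, beside the shares of all genes given above. The list holds GLIS3, the target of the guide, and is not independent evidence of its direction.

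Several called genes act in the cell cycle or on DNA. KIF11, a motor of the mitotic spindle, was at 48.6, 46.5 and 51.1 normalized CPM in control and 30.1, 24.5 and 30.1 in GLIS3 CRISPRko (log2 fold change -0.79, adjusted p = 0.0469), but it passed in 0 of 6 fits with a library left out. It was the only one of 47 cell cycle and DNA replication genes called, and 35 were below 0 (median -0.23, or -0.17 without GLIS3 CRISPRko replicate 3). Without adjustment 0 were higher and 9 lower, beside 6.17% and 5.26% of all genes tested. The groups did not overlap for 1 higher and 13 lower members, beside 8.97% and 8.85% of all genes tested. The kinesin CENPE (adjusted p = 0.0603) and the replication factor MCM10 (0.0603) did not pass. ATAD2, a bromodomain ATPase bound to chromatin, was at 43.9, 29.6 and 31.9 in control and 12.7, 16.4 and 13.6 in GLIS3 CRISPRko, 2.47-fold lower (adjusted p = 0.0136). CCNC, cyclin C of the Mediator kinase module, was lower (-0.77, adjusted p = 0.0132), as was SLFN11, which acts on stalled replication forks (-1.0, adjusted p = 0.0462). Among 30 p53 targets 0 were called, and 21 were above 0 (median 0.17, or 0.095 without GLIS3 CRISPRko replicate 3), with 2 higher and 1 lower without adjustment. CDKN1A, the best known of them, had 268, 311 and 354 in control and 762, 517 and 253 in GLIS3 CRISPRko, so replicate 3 lay below all 3 control libraries (adjusted p = 0.366).

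Other called genes encode enzymes of metabolism or the lysosome. TPP1, a lysosomal peptidase, was at 26.7, 30.7 and 29.4 normalized CPM in control and 78.7, 58.7 and 50.9 in GLIS3 CRISPRko, 2.16-fold higher (log2 fold change 1.11, SE 0.21, adjusted p = 0.0113). GPX1, a glutathione peroxidase, was at 172, 201 and 219 against 419, 363 and 239, so replicate 3 of GLIS3 CRISPRko was closest to control (adjusted p = 0.0350). G6PC3, a glucose-6-phosphatase, was at 23.1, 19.8 and 27.3 against 65.2, 42.1 and 32.6, and replicate 3 was again closest to control (adjusted p = 0.0409). MOXD1, a monooxygenase-like protein of the endoplasmic reticulum, rose from 29.4, 44.3 and 39.2 to 70.2, 67.9 and 80.4 (0.96, adjusted p = 0.00587). PSAT1, of serine synthesis, was lower, at 71.3, 76.3 and 57.0 in control and 39.8, 30.9 and 47.8 in GLIS3 CRISPRko (-0.79, adjusted p = 0.0385), and was the only one called of 29 ATF4 target and serine synthesis genes.

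Of the remaining called genes, SERPINB7, a serine protease inhibitor, had the lowest p among the higher genes. It was at 61.4, 58.1 and 65.6 normalized CPM in control and 104, 124 and 120 in GLIS3 CRISPRko (log2 fold change 0.91, SE 0.15, adjusted p = 0.00587). SYPL2, a membrane protein of the synaptophysin family, was at 28.1, 38.1 and 39.2 against 73.9, 82.6 and 60.3 (adjusted p = 0.0118). HSPB8, a small heat shock protein, was at 23.5 to 29.6 in control and 40.8 to 48.8 in GLIS3 CRISPRko. SYNGR2, MEA1 and ARMC9 were also higher, by 0.70, 0.71 and 0.84 on the log2 scale. HIST1H2BK encodes a histone whose paralogs are near-identical, so its rise of 0.91 (adjusted p = 0.0469) is uncertain, and it passed in 0 of 6 fits with a library left out. NAA50, an N-terminal acetyltransferase, fell by 0.61 and PCNP by 0.82.

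**Figure D4:**
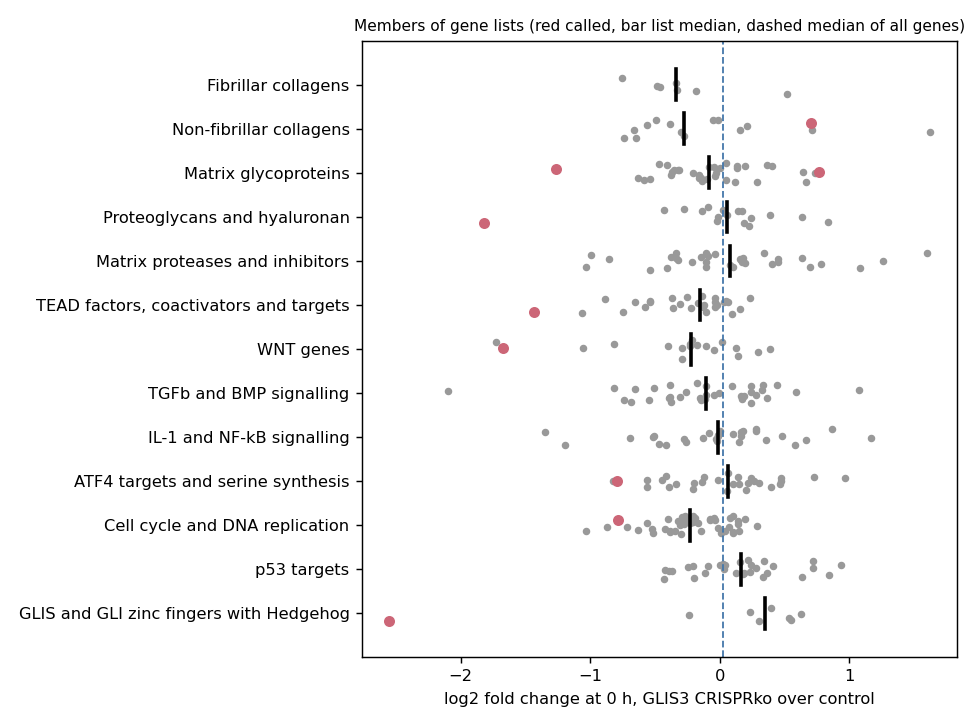
The log2 fold change at 0 h of each tested member of 13 gene lists (horizontal axis), with called members in red, list medians as bars and the median of all genes (0.02) as a dashed line. Fibrillar collagens and the cell cycle list have medians of -0.34 and -0.23, and GLIS3 is the only called member of its own list.

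Promoters were searched for 3 motifs, on both strands of the window from 250 bases before to 50 after the RefSeq start (GRCh38.p14). These were TGGGGGGT, a core bound by GLIS factors, TGANTCA, bound by AP-1, and GGAATG, bound by TEAD factors. Promoters were found for 16 of the higher and 11 of the lower genes. TGGGGGGT was in 0 of both sets, in 1.00% of the promoters of genes tested and in 1.33% of all promoters. TGANTCA was in 0 of both, in 4.42% of the promoters of genes tested and in 7.76% of all. Sets of 16 and 11 promoters are too small to tell 0 from shares this low. GGAATG was in 2 of 16 higher genes (12.5%) and 2 of 11 lower genes (18.2%), against 10.7% of the promoters of genes tested and 14% of all. NUAK2 held it on both strands, and its windows are shown because NUAK2 is the called gene of the TEAD list, with the motif in capitals and read on the strand that holds it.
NUAK2 window with the motif at -197 from the start, chr1:205321926-205321953: cccgcccaccaGGAATGgggactagggg
NUAK2 window with the motif at -18 from the start, chr1:205321747-205321774: tataacaacttGGAATGctgtgctttac
A match is a description of letters in the window, not of binding.

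The same 33 genes were read at the later times, in separate libraries of the same cell populations. The 19 genes higher at 0 h were higher in 19 at 6 h, 18 at 12 h and 18 at 24 h, and 5, 3 and 4 of them passed. Of all genes, 0.274%, 0.0547% and 0.137% passed as higher at these times. The 14 lower genes were lower in 11, 11 and 14, and 4, 2 and 2 of them passed, against 0.0456%, 0.0274% and 0.073% of all genes. In either direction the later comparisons called 0.319%, 0.0821% and 0.21% of genes. Among all genes, 55.0%, 53.9% and 57.2% had the direction of 0 h at these times. These later counts also rested on single libraries, with 5 to 28 genes at 6 h, 4 to 8 at 12 h and 6 to 104 at 24 h when each library was left out, the last without GLIS3 CRISPRko replicate 1. Of the 33 genes, only SERPINB7, MOXD1 and COL8A1 passed at all 4 times, and MOXD1 alone kept its call at 6, 12 and 24 h whichever library of that time was left out. MOXD1 had log2 fold changes of 0.96, 1.31, 1.4 and 1.24, and COL8A1 of 0.70, 0.69, 1.07 and 1.00. DCN had -1.82, -1.60, -1.01 and -0.76 and passed at 0 and 6 h. TGFBI had -1.27, -1.16, -0.54 and -1.26 and passed at 0, 6 and 24 h. NAA50, CCNC and CDC42EP3 had log2 fold changes of 0.28, 0.01 and -0.03 at 6 h, against -0.61, -0.77 and -0.76 at 0 h, but the difference between these times did not pass for any of them (adjusted p = 0.126, 0.259 and 0.266).

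A test of the difference between times gave 1 gene for 6 h against 0 h (0.00912% of those tested), and 0 for 12 h and 0 for 24 h, where 709 and 616 genes had an unadjusted p under 0.05. DESeq2 called 42 genes for 6 h, 0 for 12 h and 1 for 24 h. For 6 h against 0 h, edgeR called 4 genes without GLIS3 CRISPRko replicate 3 at 6 h and 1 with any other library of 0 or 6 h left out.

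In the CRISPRa arm, which shares no library with the CRISPRko arm, GLIS3 was higher in VP64_A than in VP64_Ctrl at 0 h, by 3.61 on the log2 scale (adjusted p = 1.27e-12), and 9.41% of 10980 genes were called, 4.29% higher and 5.12% lower. That count was 1033, and 608, 666 and 491 without replicates 1 and 3 of VP64_A and replicate 3 of VP64_Ctrl. Of the 19 genes higher in GLIS3 CRISPRko, 15 were lower in VP64_A, 8 of them called, and NID2 and OLFML3 were called higher. Of the 14 lower genes, 12 were higher in VP64_A, 5 of them called: GLIS3, TGFBI, AKAP12, NUAK2 and SLFN11. GLIS3 is the gene targeted in both arms, so its place in these counts follows from the design. Over all genes tested in both arms, 57.3% had opposite directions. In VP64_A, NID2 missed the threshold without VP64_A replicate 2, and SLFN11 without VP64_A replicate 3 or VP64_Ctrl replicate 2 or 3. SYPL2 and ACKR4 had the lowest log2 fold changes among the higher genes, -2.15 and -1.87. DCN, the gene with the lowest p in GLIS3 CRISPRko, had -0.08 (SE 0.20, adjusted p = 0.862) in VP64_A.

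**Figure D5:**
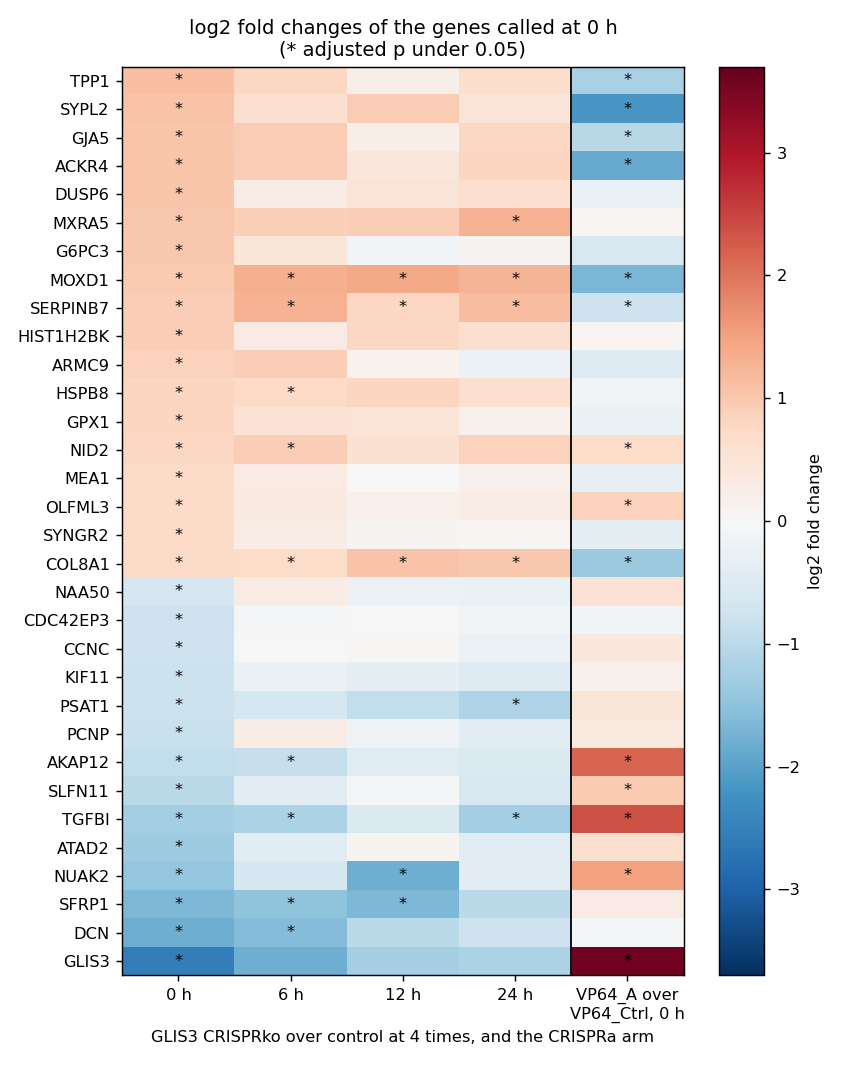
The log2 fold changes (colour) of 32 genes called at 0 h for GLIS3 CRISPRko over control at 0, 6, 12 and 24 h and for VP64_A over VP64_Ctrl at 0 h (columns), with an asterisk where the adjusted p is under 0.05. SERPINB7, MOXD1 and COL8A1 have an asterisk at all 4 times, and GLIS3 is 3.61 in the CRISPRa column.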

How the data were processed

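RNA-seq libraries of the 48 samples were compared by their labels. The authors trimmed reads with Trim Galore, removed ribosomal RNA, aligned to GRCh38 with STAR and deposited Salmon estimated counts, not normalized between libraries, and TPM, scaled for length and to one total per library. Of the deposited estimated counts, 6.38% were not whole; all were rounded. The counting strand is not given in the sources used here. The 24 CRISPRko libraries (8 groups) were fitted together with edgeR 4.0.16 in R 4.3.3: TMM, filterByExpr (minimum count 10, minimum total 15; 10962 genes kept) and the two-sided quasi-likelihood F test, with Benjamini-Hochberg adjustment over all genes tested. The CRISPRa arm was fitted alike. Guides came from the study's oligonucleotide list and were matched to GRCh38. The fit was tested on simulated data for 0 h. There it called 55% of genes with a true log2 fold change of 1 and 90% of those with 2. A gene not called can therefore still differ. Of its calls 3.97% were false. The simulated counts were drawn from the fitted model itself, without the trend by level seen in the real GLIS3 CRISPRko libraries. These shares therefore cannot be carried over to the 33 genes called. Alternatives were DESeq2 1.42.0, its size factors, no filter, only the 6 libraries, limma 3.58.1 (TPM plus 1 or 0.1, log2 scale), a replicate block and each library at 0 h left out. Loess offsets, DESeq2 on 6 libraries, the block at later times and libraries left out elsewhere were added after seeing the data. Genes named are the called genes, those the study names, guide targets and neighbours of GLIS3, and leading members of the lists. The members and lists were chosen with earlier results of these data known. Of 942 list members 13, all mitochondrially encoded, were not found in the table. A few genes are not reported here.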

Additional observations from a re-analysis of the deposited data

How the results depend on the processing

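The count of 33 genes at 0 h was 119 with DESeq2, 137 without the filter, 75 with only the 6 libraries, 11 to 13 with limma on TPM (11 and 12 with pseudocounts of 1 and 0.1, 13 unfiltered), 1253 without adjustment, 107 at an adjusted p under 0.1 and 14 with a log2 change of at least 1. Choices added after seeing the data gave 137 (loess offsets) and 97 (DESeq2 on 6 libraries). Leaving out each library gave 2 to 52. DESeq2's size factors gave 30. The cause of these shifts was not tested. At 6 h the count was 181 with DESeq2 and 142 unfiltered; at 12 h 43, 81 and, with loess offsets, 22; at 24 h 35 and 92. The differences between times gave 42 and 63 for 6 h, 31 unfiltered for 12 h, and 1 and 21 for 24 h. Libraries left out in turn gave 5 to 28 genes at 6 h, 4 to 8 at 12 h and 6 to 104 at 24 h, 1 to 4 for the difference between 6 and 0 h and 0 for 12 and 24 h, and 491 to 1152 in VP64_A. At 0 h, deviations from the group mean correlated at -0.045, 0.012 and -0.049 between same-numbered libraries of the 2 groups. Between libraries with other numbers they correlated at -0.030 to 0.064. These small values show no shared shift by replicate number, and cannot tell how the samples were paired. A replicate block within each time gave 72 genes at 0 h, 82 at 6 h and 26 at 12 h. One across times gave 36 at 0 h, and one on the 6 libraries 67. All 33 genes, where tested, had the same direction under the 18 other settings, a direction their choice fixes in part. LIF, at up to 9 counts, was at 0.48 and lay between -1.84 (without GLIS3 CRISPRko replicate 3) and 1.18 with a library left out. Depth limits GLIS3, at 1 to 15 counts a library.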
